A study of Homo sapiens with 12 samples.

Results

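Knock-down of ZZZ3 was examined in SW872 cells that expressed the TAZ-CAMTA1 fusion protein. The libraries were chosen by their titles: 2 TAZ-CAMTA1 shZZZ3 libraries were compared with 2 TAZ-CAMTA1 shNon-targeting libraries, 4 of the 12 libraries of the series. These groups are called TC shZZZ3 and TC shNT. SW872 is a human liposarcoma cell line. All cells of the comparison carried the TAZ-CAMTA1 fusion from a stably integrated retroviral construct and a stably integrated lentiviral hairpin, which targeted ZZZ3 or no human transcript. The lines were drug-selected pools and not single clones, and the libraries were made in duplicate from poly(A) RNA. The other 8 libraries held cells with the same fusion and a hairpin against YEATS2 (TC shYEATS2), or cells with the YAP-TFE3 fusion (YT) and each of the same hairpin types. The study's methods describe its sequencing replicates as separate rounds of transduction and selection, but whether this held for the hairpin lines is not given in the sources used here, so p-values measure the spread between these libraries, which may be partly technical.

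TAZ-CAMTA1 arises by a chromosomal translocation in most epithelioid haemangioendotheliomas, a vascular sarcoma, and joins the N-terminus of TAZ (gene WWTR1), a co-activator that binds TEAD transcription factors, to the C-terminus of the transcription factor CAMTA1. YAP-TFE3 is the fusion found in a smaller share of cases. The Ada2a-containing (ATAC) complex is a histone acetyltransferase complex: its catalytic subunits KAT2A or KAT2B acetylate histone H3, YEATS2 reads acetylated H3, and ZZZ3 binds the tail of H3 through its ZZ domain. The comparison asks which transcripts of TAZ-CAMTA1 cells depend on the ZZZ3 hairpin. In bulk RNA, fewer cells of a kind and less RNA per cell cannot be told apart.

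The study listed 5 hairpins against ZZZ3. Which of them was in the sequenced cells is not given in the sources used here, so all 5 target sites are shown, because a change in ZZZ3 counts depends on them. Each is 21 bases of ZZZ3 mRNA, 5′ to 3′, with bases 14 to 20 in capitals, which pair with the seed (bases 2 to 8) of the guide strand.
ZZZ3 hairpin 1: tcaaagaacttggTCATAAAt
ZZZ3 hairpin 2: ttcccgatctactCGTGTTAc
ZZZ3 hairpin 3: cgcatcctgaagaAATCTCTt
ZZZ3 hairpin 4: gcatcagatgacgAAAGTATt
ZZZ3 hairpin 5: gacgacagcacccTCTTAATa
ZZZ3 lies on the minus strand of chr1:77562416-77683419 (hg38). Hairpins 2 and 3 match the coding sequence of exon 5 at chr1:77633326-77633346 and chr1:77633234-77633254. Hairpin 5 matches coding exon 12 at chr1:77576187-77576207, and hairpin 1 matches the 3′ UTR in exon 15, the last exon, at chr1:77565309-77565329. Hairpin 4 was found in spliced ZZZ3 transcripts and in no single exon. None of the 5 sites had an exact match in a transcript of another gene of GENCODE 44.

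Depth and library quality come before the results, because the controls differed from each other. The 4 libraries held 27596240 and 19420504 counts (TC shNT replicates 1 and 2) and 25066218 and 18654191 counts (TC shZZZ3 replicates 1 and 2), within the range of 17451893 to 29294805 over all 12. Between the TC shNT duplicates the median absolute log2 difference per gene was 0.483, against 0.126 between the TC shZZZ3 duplicates. The difference between the TC shNT duplicates followed the GC content of the genes (Spearman rho = -0.81 over 13258 genes, a description across genes of 1 pair of libraries). The counts of called genes and several results are therefore also given without each TC shNT library. Levels are given in CPM, the read counts scaled to a common library size with TMM factors, which are not corrected for gene length and are compared within a gene only. The identity of the line was checked on marker lists. All 12 mesenchymal markers reached a level of at least 1 CPM in a library, with VIM at 1540, 1134, 1410 and 1393 CPM. Of 10 blood cell markers 1 reached that level, and PTPRC and HBB had 0 counts. Of 17 adipocyte markers 11 did. FABP4 and LEP had 0 counts and PPARG lay between 43.6 and 67.9 CPM. The level of 1 CPM was also reached by 12 of 15 endothelial markers and by 19 of 30 keratin and epithelial junction genes. This threshold therefore does not set the mesenchymal markers apart from those lists.

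The ZZZ3 transcript itself was lower in TC shZZZ3 cells, but the size of the drop rested on 1 control library. ZZZ3 was at 25.6 and 60.4 CPM in TC shNT and at 21.9 and 22.7 CPM in TC shZZZ3 (raw counts 671 and 1265 against 540 and 425). The 2 knock-down libraries lay close together and below both controls, while the controls were more than 2-fold apart. The log2 fold change was -0.94 ± 0.42 (SE), with adjusted p = 0.45, so the drop did not pass the test across all genes. Leaving out TC shNT replicate 1 gave -1.45, and leaving out replicate 2 gave -0.22. For comparison ZZZ3 was at 35.8 and 47.3 CPM in TC shYEATS2, and in YAP-TFE3 cells it was at 71.2 and 49.1 CPM with the non-targeting hairpin and 12.6 and 29.6 CPM with shZZZ3, a fall of log2 -1.51 ± 0.42 (adjusted p = 0.0453). The protein was not measured in these data. The study reported knock-down of ZZZ3 protein by western blot in SW872 cells with TAZ-CAMTA1. Whether those were the sequenced cells is not given in the sources used here.

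**Figure D1:**
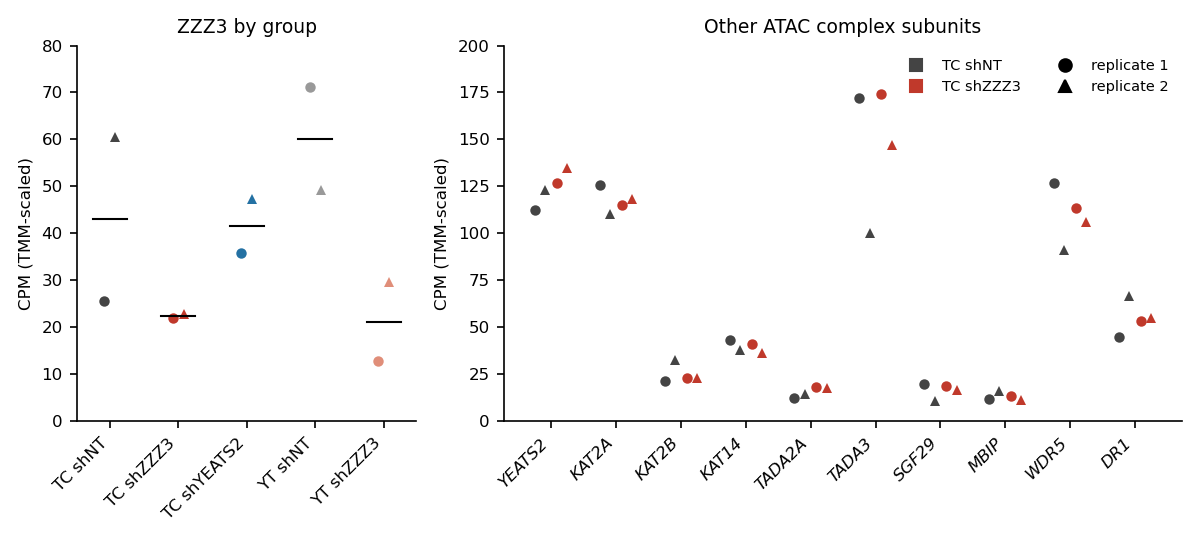
Left, ZZZ3 in CPM (y axis) in the libraries of 5 groups (x axis), with bars at the group means; right, the other ATAC complex subunits in the 4 libraries compared. Circles are replicate 1 and triangles replicate 2. Both TC shZZZ3 libraries (21.9 and 22.7 CPM) lie below both TC shNT libraries (25.6 and 60.4 CPM), and of the other subunits only YEATS2 and TADA2A have groups that do not overlap, both being slightly higher with shZZZ3.

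None of the 11 ATAC subunits was called: of all 18415 tested genes, 1.53% were called in either direction. YEATS2, the scaffold and acetyl-lysine reader, was at 113 and 123 CPM in TC shNT and 127 and 135 CPM in TC shZZZ3 (0.15 ± 0.17, log2 ± SE). The acetyltransferases KAT2A and KAT2B had log2 fold changes of -0.01 ± 0.23 and -0.24 ± 0.28, and the second acetyltransferase of the complex, KAT14, -0.07 ± 0.19. Of the adaptor subunits TADA2A had the smallest p (0.43 ± 0.19, adjusted p = 0.454), and the remaining members (TADA3, SGF29, MBIP, WDR5 and DR1) lay between -0.19 and 0.24.

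Few genes were called, which does not measure how many the hairpin moved. Of 18415 genes tested, 172 were higher and 109 were lower in TC shZZZ3 than in TC shNT at an adjusted p under 0.05 (edgeR quasi-likelihood test, Benjamini-Hochberg), that is 0.934% and 0.592% of the genes tested, and 1991 had an unadjusted p under 0.05. Among the 281 called genes, 272 differed at least 2-fold and 128 at least 4-fold. The median log2 fold change was 2.0 over the called rises and -1.76 over the called falls, against -0.01 over all genes tested. Protein-coding genes made up 255 of the 281 and lncRNAs 20. The number called was 532 with DESeq2, 669 with GC trends removed and 744 with no filter on low counts. It was 157 with only the 4 libraries of the comparison and 87 with only the TC libraries. The count was 152 when TC shNT replicate 1 was left out and 144 when replicate 2 was. With either left out, 132 of the 281 were called again in the same direction, 88 of them in both cases, and no called gene changed sign. Leaving out TC shZZZ3 replicate 1 or 2 left 50 or 53 genes, all of them among the 281. Of 82 called genes chosen for naming, 60 kept their call without TC shNT replicate 1 and 52 without replicate 2. Among those reported here, calls were lost whichever of these libraries was left out for MPPED2, LRP2, CALB2, COL5A3, EFNA5, NTN1, CA9, IL1B, HEY2, WNT9A, COL6A3, CD44, ENPP2, COL15A1 and FAT4. They were lost without replicate 1 alone for PCDH19, SEMA6A, NRXN3, KCNE4, PLAT and CACNA1H, and without replicate 2 alone for KRT17, CLU, LEF1, CCN1, FOSL1, ATF3, CDKN1A, PLAU, EMILIN2, CAMTA1, FN1, TEK, HMCN1 and FAT3. The medians of many gene lists below also moved by over 1.5 times or changed sign on leaving out 1 TC shNT library, and some of those values are given beside them.

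**Figure D2:**
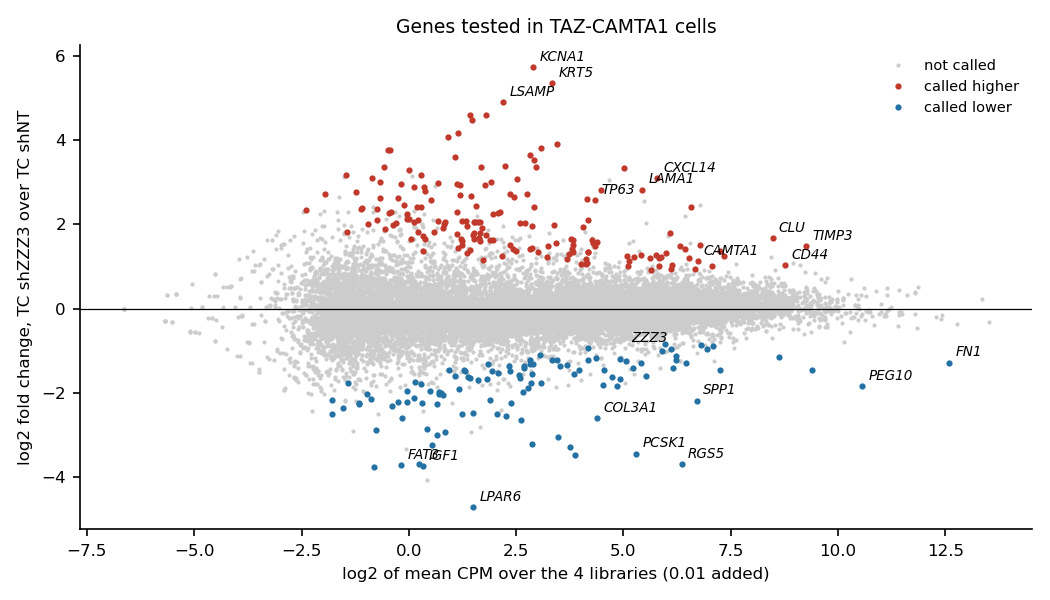
Log2 fold change of TC shZZZ3 over TC shNT (y axis) against the log2 mean CPM of the 4 libraries with 0.01 added (x axis) for the genes tested. Red and blue points are the 172 genes called higher and the 109 called lower, and grey points were not called. The largest fold changes are in genes of low and middle abundance, and FN1 is the most abundant called gene.

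Keratins were among the called rises, which were 0.934% of all genes tested (called falls 0.592%). Of 24 tested genes of keratins and epithelial junctions 5 were higher and none lower, with a list median of 0.77 (all genes -0.01), and of 0.59 and 0.55 when TC shNT replicate 1 or 2 was left out. KRT5, the basal keratinocyte keratin, was at 0.534 and 0.239 CPM in TC shNT and 21.3 and 18.4 CPM in TC shZZZ3 (log2 fold change 5.36 ± 0.52, adjusted p = 5.99e-04). KRT15, another basal keratin, was at 1.26 and 0.956 against 14.1 and 13.6 CPM (3.54 ± 0.48, adjusted p = 0.00434). In both genes the groups were far apart and the knock-down duplicates close together. KRT17, a stress-responsive keratin, was at 0.267 and 0.0956 against 2.52 and 1.39 CPM (2.90 ± 0.63), and KRT80 rose by 2.29 on the log2 scale. TP63 encodes p63, the transcription factor that maintains basal epithelial cells. It was at 5.19 and 6.26 CPM in TC shNT and 35.4 and 34 CPM in TC shZZZ3 (2.58 ± 0.26, adjusted p = 8.62e-04). The simple-epithelial keratins KRT8, KRT18 and KRT19, the adherens junction gene CDH1 and the desmosomal plaque gene DSP were not called, with log2 fold changes of 0.75, 1.09, 0.91, 1.18 and 0.80. EPCAM was at -0.51 and the desmosomal cadherin genes DSG3, DSC2 and DSC3 had no count in the 4 libraries. The summed level of the whole list was 1124 and 679 CPM in TC shNT and 1508 and 1296 CPM in TC shZZZ3. KRT8, KRT17 and KRT18 have near-identical pseudogene copies that share reads with them, so their counts are uncertain. The 15 largest rises also held PADI3, a peptidyl arginine deiminase of the hair follicle, at 0.0381 and 0.287 against 5.44 and 5.29 CPM (4.49 ± 0.85), and the giant protocadherin FAT2 at 1.11 and 0.812 against 11.9 and 14.6 CPM (3.65 ± 0.28).

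The single largest rise was KCNA1, a voltage-gated potassium channel of axons, and LSAMP and NTRK2, also known from neurons, stood among the 15 largest. KCNA1 was at 0.267 and 0.0956 CPM in TC shNT and 14.4 and 14.9 CPM in TC shZZZ3 (5.73 ± 0.58, adjusted p = 3.34e-04). LSAMP, an IgLON adhesion molecule of limbic neurons, was at 0.153 and 0.287 against 9.06 and 8.87 CPM (4.90 ± 0.52, adjusted p = 3.94e-04). NTRK2, which encodes the BDNF receptor TrkB, was at 0.0763 and 0.191 against 4.83 and 5.56 CPM (4.60 ± 0.80, adjusted p = 0.00255). All 3 genes were close to undetected in the controls, so their fold changes carry the counting error of a few reads. CSMD2, a large transmembrane protein with CUB and sushi domains, rose by 4.61, and the metallophosphoesterase domain gene MPPED2 by 4.16. The list of 14 neuronal adhesion molecules had 2 members called, LSAMP and the presynaptic neurexin NRXN3 (0.61 and 1.58 against 4.39 and 5.08 CPM, 2.05 ± 0.46), both higher, with a median of 0.19. Of 28 ion channel genes 2 were higher and 2 lower, with a median of -0.03. Over all genes tested 0.934% were called higher and 0.592% lower. The higher ones were KCNA1 and the calcium channel subunit CACNA2D3 (2.02 ± 0.25). The lower ones were the T-type calcium channel CACNA1H (-1.97 ± 0.39) and the potassium channel regulator KCNE4, at 102 and 80.9 against 45 and 49.2 CPM (-0.95 ± 0.18). SCN4B, a sodium channel beta subunit outside that list and 1 of the 10 called genes of highest CPM, fell from 260.3 and 185 to 82.6 and 80 CPM (-1.45 ± 0.22, adjusted p = 0.00816).

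Axon guidance genes and cadherins held members in both directions, where 0.934% of all genes tested were called higher and 0.592% lower. Among 29 tested axon guidance genes 3 ligands were higher: the semaphorin SEMA6A (5.26 and 8.22 against 27.9 and 30.1 CPM, 2.10 ± 0.37), the ephrin EFNA5 (1.89 ± 0.45) and the netrin NTN1 (1.79 ± 0.40). The netrin receptor UNC5B was lower, at 60.3 and 48.6 against 21.9 and 19 CPM (-1.41 ± 0.21, adjusted p = 0.00772). The list median was -0.06. Of 17 cadherins the giant protocadherin FAT2 and the delta protocadherin PCDH19 (0.382 and 0.621 against 5.4 and 6.41 CPM, 3.36 ± 0.56) rose. Their relatives FAT3 and FAT4 fell. FAT3 had 78 counts over the 2 controls and 2 over the 2 knock-down libraries, a ratio of 35.9 with an exact 95% interval of 9.60 to 301, which covers counting error only. FAT4 was at 0.839 and 0.86 against 0.122 and 0.16 CPM (-2.04 ± 0.52). None of the 9 classical and desmosome-partner cadherins tested was called, and their median was -0.72, and -0.23 and -0.35 without TC shNT replicate 1 or 2.

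Extracellular matrix genes moved in both directions, also within a family. FN1, which encodes fibronectin and was the most abundant called gene, was at 7527 and 10006 CPM in TC shNT and 2913 and 4264 CPM in TC shZZZ3 (-1.29 ± 0.27, adjusted p = 0.0465). The groups did not overlap. The call was kept without TC shNT replicate 1 (adjusted p = 0.0487) and lost without replicate 2 (adjusted p = 0.147). FN1 and COL3A1 were the 2 of 12 mesenchymal markers that were called and the median of that list was -0.13. The collagens COL3A1 and COL15A1 fell with it. COL3A1, a fibrillar collagen of vessels and skin, was at 33.6 and 38.1 against 5.24 and 6.41 CPM (-2.61 ± 0.28, adjusted p = 0.00148), and COL15A1, a collagen next to basement membranes, at 499 and 585 against 226 and 259 CPM (-1.16 ± 0.25). COL5A3 and COL6A3 rose: COL5A3 was at 7.06 and 6.5 against 23 and 29.6 CPM (1.94 ± 0.32) and COL6A3 at 86.8 and 106 against 197 and 261 CPM (1.25 ± 0.23). The 19 fibrillar and FACIT collagens thus had 2 members higher and 1 lower (median -0.17). Among the 24 basement membrane genes 1 was higher and 1 lower (median -0.03). The shares over all genes tested were 0.934% higher and 0.592% lower.

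LAMA1, the laminin alpha 1 chain, was the basement membrane gene that rose, at 9.73 and 11.6 CPM in TC shNT and 62.8 and 89.6 CPM in TC shZZZ3 (2.83 ± 0.26, adjusted p = 5.97e-04). Among 23 matricellular and adhesive glycoproteins 3 were higher and 5 lower (median -0.04), against 0.934% and 0.592% of all genes tested. SPP1, which encodes osteopontin, an integrin and CD44 ligand, was at 159 and 184 against 39.7 and 35.2 CPM (-2.19 ± 0.24, adjusted p = 0.00152), with both knock-down libraries far below both controls. HMCN1, the hemicentin 1 gene, fell from 8.85 and 17.6 to 0.893 and 1.82 CPM (-3.22 ± 0.63); the other falls were FN1, SPARCL1 (-1.69 ± 0.29) and MATN2 (-0.96 ± 0.16). The rises were ITIH5, a heavy chain that binds hyaluronan (0.763 and 0.717 against 8.24 and 9.09 CPM, 3.40 ± 0.31), SMOC1 (2.43 ± 0.34) and thrombospondin 2, THBS2 (49.2 and 64.8 against 148 and 177 CPM, 1.51 ± 0.24). Of 20 elastic fibre genes only EMILIN2 was called (1.14 ± 0.20, higher; list median -0.27, but 0.11 without TC shNT replicate 1 and -0.47 without replicate 2), and FBLN5, the fibulin that organises elastic fibres, was at 16 and 14.5 against 34.8 and 29.9 CPM and did not pass the test (1.08 ± 0.27, adjusted p = 0.0978).

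Cell-surface proteoglycans and the protease inhibitor TIMP3 were among the rises. CD44, the hyaluronan receptor, was at 289.5 and 283 against 577 and 595 CPM (1.03 ± 0.18, adjusted p = 0.0164). The heparan sulphate carriers SDC2 and GPC4 were at 54.7 and 56.6 against 129 and 126 CPM (1.19 ± 0.16) and at 36.5 and 36.1 against 85.9 and 95.8 CPM (1.32 ± 0.22). These were 3 of 19 tested proteoglycan and hyaluronan genes, with none lower and a median of 0.19. Called rises were 0.934% and called falls 0.592% of all genes tested. TIMP3, an inhibitor of metalloproteinases that binds matrix, was at 325 and 317 CPM in TC shNT and 894 and 902 CPM in TC shZZZ3 (1.48 ± 0.18, adjusted p = 0.00213). The plasminogen system held both directions. Urokinase PLAU rose (1.22 ± 0.22). Tissue plasminogen activator PLAT, 1 of the most abundant called genes, fell from 1089 and 875 to 348 and 369 CPM (-1.45 ± 0.26, adjusted p = 0.0204). Over the 23 tested proteases and inhibitors 3 were higher and 1 lower (median -0.18). No integrin of 18 was called; ITGA3 and ITGB2 had the smallest p, with log2 fold changes of 1.04 ± 0.26 and 1.23 ± 0.36.

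**Figure D3:**
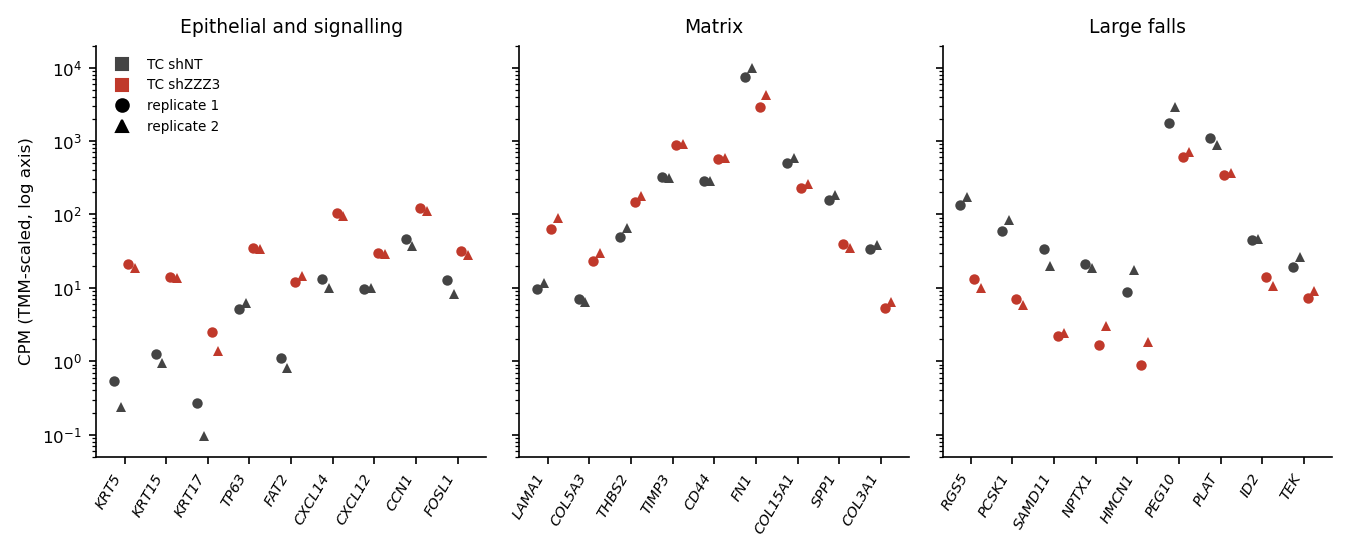
CPM on a log axis (y) of named genes (x) in the 2 TC shNT libraries (grey) and the 2 TC shZZZ3 libraries (red), with circles for replicate 1 and triangles for replicate 2. Epithelial and signalling genes rose, matrix genes moved in both directions (LAMA1 up, COL3A1 down), and the right panel holds falls such as RGS5 and PCSK1; in none of the plotted genes do the 2 groups overlap.

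Secreted signals and their receptors also moved one by one. Of 20 chemokines and cytokines 3 were higher and none lower (median 0.41), against 0.934% and 0.592% of all genes tested. CXCL14, a chemokine of epithelium, was at 13.2 and 9.84 CPM in TC shNT and 103 and 94.8 CPM in TC shZZZ3 (3.09 ± 0.26, adjusted p = 4.24e-04). CXCL12, the ligand of CXCR4, was at 9.73 and 10.1 against 29.9 and 29 CPM (1.56 ± 0.21) and the inflammatory cytokine IL1B at 0.496 and 0.573 against 2.03 and 1.92 CPM (1.74 ± 0.42, adjusted p = 0.04996). Among 43 growth factors and receptors NTRK2 rose and IGF1 fell. IGF1, insulin-like growth factor 1, was at 1.98 and 2.77 against 0.0406 and 0.16 CPM (-3.74 ± 0.90, adjusted p = 0.00873), and the list median was 0.10. The lysophosphatidic acid receptors separated: LPAR3 rose from 0.114 and 0.143 to 3.61 and 3.58 CPM (4.09 ± 0.70) and LPAR6 fell from 4.04 and 6.98 to 0 and 0.267 CPM (-4.72 ± 1.11, adjusted p = 0.0105). Autotaxin, the enzyme that makes lysophosphatidic acid (ENPP2), fell from 22.4 and 25.4 to 12.2 and 12.5 CPM (-0.95 ± 0.21, adjusted p = 0.0456). With these, 1 of 14 genes of the list was higher and 2 lower (median -0.40).

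In the developmental pathways 1 or 2 members each were called, where 0.934% of all genes tested were called higher and 0.592% lower. BMP6, a BMP ligand, rose (3.09 and 2.77 against 11.1 and 12.4 CPM, 1.97 ± 0.24) and ID2, a helix-loop-helix inhibitor induced by BMP signals, fell from 44.6 and 46 to 14.2 and 10.7 CPM (-1.85 ± 0.21, adjusted p = 0.00182), among 28 tested TGF-beta and BMP genes (median -0.23). Of 29 WNT pathway genes the ligand WNT9A (1.59 ± 0.35) and the nuclear effector LEF1 (2.78 and 2.39 against 7.59 and 7.54 CPM, 1.51 ± 0.23) were higher, with a median of 0.20. HEY2, a Notch target, was the 1 of 14 Notch genes called (1.64 ± 0.27, higher; median -0.04). Among 18 genes of ERK pathway feedback the AP-1 subunit FOSL1 (12.9 and 8.36 against 32.2 and 27.6 CPM, 1.48 ± 0.29) and PHLDA1 (75.8 and 93.4 against 217 and 218 CPM, 1.36 ± 0.16) were higher. None of the 9 tested phosphatases and inhibitors of that list was called (their median -0.28). ATF3, an AP-1 family factor of the stress response (1.41 ± 0.24), CDKN1A, the p21 inhibitor of cyclin-dependent kinases (9.73 and 6.12 against 22.6 and 18.2 CPM, 1.35 ± 0.27), and the hypoxia-induced carbonic anhydrase CA9 (1.74 ± 0.37) were the single members called in their lists. Those were 24 stress response genes (median 0.19), 15 CDK inhibitors and G1 cyclins (0.04), 18 p53 targets (0.14) and 16 hypoxia and glycolysis genes (0.44).

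The largest falls included 2 regulators of G-protein signalling and a prohormone convertase. RGS5, a regulator of G-protein signalling known as a pericyte marker, was at 133 and 171 CPM in TC shNT and 13.1 and 10.1 CPM in TC shZZZ3 (-3.70 ± 0.48, adjusted p = 0.00602). RGS5-AS1, an annotated antisense gene, fell with it (-2.61), and whether the counting used strand is not given in the sources used here, so these reads cannot be told apart. RGS7, another member of that family, had 52 counts in the controls and 0 in the knock-down libraries, so it was at least 15.9-fold lower, taking 3 counts over the group as the limit. PCSK1, the prohormone convertase of endocrine cells, was at 60.2 and 84 against 7.15 and 5.83 CPM (-3.45 ± 0.29, adjusted p = 4.24e-04). NPTX1, a neuronal pentraxin, was at 21.2 and 18.8 against 1.66 and 2.99 CPM (-3.06 ± 0.47). SAMD11 fell from 33.9 and 19.8 to 2.23 and 2.41 CPM (-3.49 ± 0.31, adjusted p = 4.28e-04). Of 15 endothelial markers the angiopoietin receptor TEK was lower (19.1 and 26.6 against 7.19 and 9.19 CPM, -1.47 ± 0.31) and none higher, where 0.592% of all genes tested were called lower. The list median was -0.67, and -0.11 and -0.94 without TC shNT replicate 1 or 2. Its summed level was 306 and 254 CPM in TC shNT and 261 and 257 CPM in TC shZZZ3.

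Further members of the 15 largest falls were lowly expressed enzymes and membrane proteins. They were the melanosomal protein TYRP1 (2.71 and 2.96 against 0.284 and 0.267 CPM), the tryptophan dioxygenase TDO2 (2.25 and 4.25 against 0.406 and 0.267 CPM), the carbonic anhydrase CA4, the secretin receptor SCTR, the dipeptidase DPEP1 and the raft protein MALL. Their log2 fold changes lay between -3.71 (MALL) and -2.86 (SCTR). DPEP1 had 51 counts in the controls and 3 in the knock-down libraries, a ratio of 15.6 (exact 95% interval 5.05 to 78.3). At the other end of abundance PEG10, an imprinted retrotransposon-derived gene, fell from 1786 and 2929.7 to 605 and 709 CPM (-1.84 ± 0.25, adjusted p = 0.00566), and CLU, which encodes the chaperone clusterin, rose from 207 and 132 to 577 and 506 CPM (1.68 ± 0.29, adjusted p = 0.0191). The remaining members of the 15 largest rises were the orphan SAM domain gene SAMD5 (1.11 and 1.48 against 20.2 and 21 CPM), the endocytic receptor LRP2 (0.992 and 1.1 against 15.8 and 16 CPM), the neprilysin gene MME and the phospholipid flippase ATP10A. ATP10A had 1 count in the controls and 61 in the knock-down libraries, a ratio of 66.4 (exact 95% interval 11.5 to 2663).

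Of 24 tested canonical YAP and TAZ targets 1 was called, in the direction of a rise, against 0.934% of all genes called higher and 0.592% called lower. The list median was 0.45, and 20 members had a positive log2 fold change. The called member was CCN1, a matricellular protein and early TEAD target, at 46.3 and 37.6 CPM in TC shNT and 123 and 113 CPM in TC shZZZ3 (1.49 ± 0.26, adjusted p = 0.0171). CCN2 (0.83), AMOTL2 (0.95) and ANKRD1 (-0.25) did not pass the test. Among 19 Hippo kinases and scaffolds and 7 TEAD and VGLL factors none was called (medians 0.17 and -0.25). The Hippo scaffolds AMOTL1 and AJUBA had the smallest p (0.69 ± 0.16 and 0.67 ± 0.18), and TEAD4 and TEAD3 were at 0.71 ± 0.27 and -0.37 ± 0.25.

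Of the genes that supply the fusions, CAMTA1 was higher in TC shZZZ3 and WWTR1 was not called. CAMTA1 was at 72.4 and 60.1 CPM in TC shNT and 154 and 137 CPM in TC shZZZ3 (1.13 ± 0.21, adjusted p = 0.0233). WWTR1 was at 174 and 216 against 189 and 175 CPM (-0.10 ± 0.20). Reads of the CAMTA1 part of the transgene and of the endogenous gene share a sequence, so these counts do not tell the fusion from the endogenous transcript. In YT cells, which lack the TAZ-CAMTA1 construct, CAMTA1 was at 26.2 and 27.1 CPM with the non-targeting hairpin and 30.4 and 23.2 CPM with shZZZ3. YAP1, TFE3 and CAMTA2 had log2 fold changes between -0.09 and -0.01 in TC cells and were not called.

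Genes that follow the fusion were read from name lists made on other libraries, cells with TAZ-CAMTA1 against cells with empty vector, and matched by symbol. Of 868 tested genes listed as higher with the fusion, 31 (3.57%) were higher in TC shZZZ3 and 17 (1.96%) were lower, with a median log2 fold change of 0.12. Of 564 listed as lower, 10 (1.77%) were higher and 7 (1.24%) lower, with a median of 0.07. Among 204 genes listed as both changed and bound by the fusion 8 (3.92%) were higher and 1 (0.490%) was lower, with a median of 0.27. The corresponding shares over all genes tested were 0.934% and 0.592%. No set test was made, and these lists were not drawn up for this comparison.

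The lists of some broad programmes held no called member, and as 1.53% of all genes were called, lists of this size would hold few calls at that share. All 28 tested cell cycle genes had positive log2 fold changes (median 0.57; from 0.04 for KIF11 to 0.83 for AURKB), but none passed the test; TYMS and MCM3 had the smallest p (0.72 ± 0.21, adjusted p = 0.151, and 0.58 ± 0.18, adjusted p = 0.189). None of 85 cytosolic ribosomal protein genes was called. Their median was -0.07, and it became 0.24 on leaving out TC shNT replicate 1 and -0.36 on leaving out replicate 2. None of 23 interferon-induced genes (median 0.08, RSAD2 1.29 ± 0.61), 19 sterol synthesis genes (0.30), 27 lysosome genes (-0.04, CTSK -1.33 ± 0.34) or 13 adipocyte genes was called. The adipocyte median was -0.54, but -0.08 without TC shNT replicate 1 and -0.34 without replicate 2. EBF2, an early factor of brown adipocytes, was at 4.39 and 6.31 CPM in TC shNT and 45.6 and 45.1 CPM in TC shZZZ3, but its log2 fold change of 3.06 ± 0.90 did not pass the test (adjusted p = 0.191). Its TC shYEATS2 duplicates, which enter the same estimate of the spread, were at 1.48 and 44.7 CPM.

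**Figure D4:**
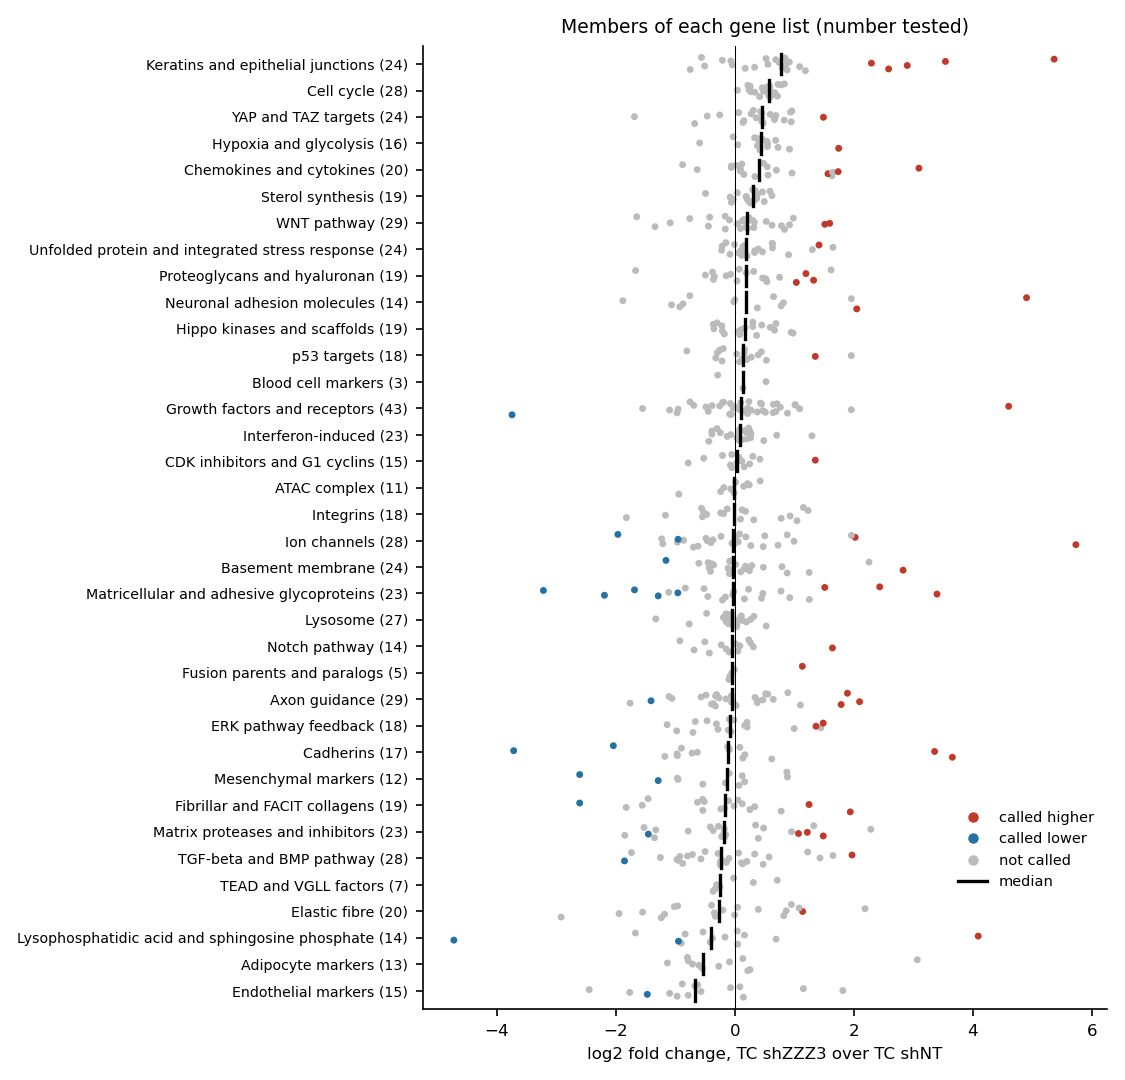
Log2 fold change of TC shZZZ3 over TC shNT (x axis) for the tested members of the gene lists (y axis, number tested in brackets), ordered by the list median (black bars). Red members were called higher, blue lower and grey were not called. The medians shown run from -0.67 to 0.77, their order changes when TC shNT replicate 1 or 2 is left out, and most lists hold 2 or fewer called genes in a direction.

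Promoters of the called genes were searched for 9 short motifs in RefSeq windows of 250 bases before to 50 after each start site (GRCh38.p14), on both strands. Of the 172 genes called higher 130 had a window and of the 109 called lower 78 did, with 212 and 122 windows. The AP-1 motif was searched in a loose form, TGANTCA, with any base in its middle. FOS, JUN and FOSL1 dimers mainly bind the forms with G or C there, so the shares also count other forms. The loose form was in 10.4% of windows of the higher genes and 4.10% of those of the lower genes. Among windows of all tested genes the share was 5.52%, and among all 35114 windows it was 7.71%. The TEAD motif GGAATG was in 15.1%, 10.7%, 11.8% and 14%, and the TATA box TATAAA in 9.43%, 18%, 6.71% and 11.5%. The cyclic AMP element TGACGTCA was in 0.943%, 1.64% and 2.66% of the higher, lower and tested windows, CCAAT in 32.5%, 30.3% and 34.3%, and the CAMTA motif CCGCGT in 14.2%, 7.38% and 16.9%. A loose form of the NF-kappaB motif, with 4 unfixed bases in its middle, was in 32.1%, 23% and 30.8%. A loose form of the serum response element, a pair of C and a pair of G with 6 unfixed bases between them, was in 84.9%, 80.3% and 88%. No window of a called gene held the glucocorticoid element. A gene can have several windows, which may overlap or lie apart, so the shares are a description. SH3BP4, called higher, had several windows with an AP-1 match. Counted by gene, that match was in 19 of 130 higher, 5 of 78 lower and 928 of 12655 tested genes. Below are the 250 bases before the start site, on the gene's strand, of 2 genes described above that held an AP-1 match, with the match in capitals.
CXCL14 promoter, chr5:135578992-135579241, minus strand: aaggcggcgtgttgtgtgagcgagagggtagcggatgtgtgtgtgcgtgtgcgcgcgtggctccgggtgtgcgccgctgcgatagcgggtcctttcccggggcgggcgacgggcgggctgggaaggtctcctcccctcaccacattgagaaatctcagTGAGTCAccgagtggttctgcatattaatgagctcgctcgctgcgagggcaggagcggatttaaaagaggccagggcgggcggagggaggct
EMILIN2 promoter, chr18:2846756-2847005, plus strand: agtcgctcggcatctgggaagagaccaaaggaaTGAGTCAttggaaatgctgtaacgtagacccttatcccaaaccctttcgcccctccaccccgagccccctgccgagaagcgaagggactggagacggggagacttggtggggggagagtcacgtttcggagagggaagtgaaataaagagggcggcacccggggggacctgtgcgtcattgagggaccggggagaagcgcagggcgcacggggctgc
The match begins 92 bases before the start site in CXCL14 and 217 before it in EMILIN2. Both genes rose in TC shZZZ3 (log2 3.09 and 1.14). Genes described above that fell held matches to the loose form too. In RGS7 (log2 -3.76) and TDO2 (log2 -2.94) a match began 54 and 244 bases before the start site. These matches were TGAATCA and TGATTCA, without the middle G of the CXCL14 and EMILIN2 matches. SHC4, another called fall (log2 -1.92), held TGAGTCA from 81 bases before its start site.

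The same hairpin target was then compared between the fusions. For each gene the shZZZ3 effect in YT cells was subtracted from that in TC cells within the fit of all 12 libraries. The difference was called for 795 of 18415 genes, 4.32%, of which 527 were higher and 268 lower in TC. Among the 281 genes called in TC, 146 had a called difference. Those genes were picked on the TC effect, which is part of the difference, so their share cannot be set against 4.32%. In YT cells 4.40% of genes tested were called higher and 5.62% lower, and of the 281, 63 were called there in the same direction and 47 in the opposite one. YT shZZZ3 replicates differed by a median of 0.433 per gene on the log2 scale. Across genes, replicate 1 correlated at 0.968 and 0.964 with the TC shZZZ3 libraries and at 0.966 and 0.938 with the TC shNT libraries. With the YT shNT libraries it correlated at 0.926 and 0.934. Replicate 2 correlated at 0.943 and 0.952 with the TC shZZZ3 libraries and at 0.918 and 0.967 with the TC shNT libraries. With the YT shNT libraries replicate 2 correlated at 0.943 and 0.937. Why YT shZZZ3 lay this close to TC libraries was not tested, and it bears on the differences between the fusions below. Removing a library that stands apart moved the number of called differences to 721 (without TC shNT replicate 1), 1012 (replicate 2), 607 (without YT shZZZ3 replicate 1) and 685 (replicate 2). Without either YT shNT library 259 and 204 differences were called, and without either TC shZZZ3 library 248 and 237.

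KCNA1 and KRT5, the 2 largest rises, were called with both fusions. KCNA1 was at 0.422 and 0.345 CPM in YT shNT and 7.31 and 11.9 CPM in YT shZZZ3 (log2 4.36 ± 0.50; difference TC minus YT 1.38 ± 0.77, adjusted p = 0.304). KRT5 had 0 counts in YT shNT and was at 3.13 and 1.18 CPM in YT shZZZ3, and the difference did not pass the test (adjusted p = 0.507); with a control group at 0 its fitted size depends on the prior count. The falls of SPP1 (-2.69 in YT), FN1 (-1.63), PLAT (-1.83) and COL15A1 (-1.55) also had values of the same sign in YT, with differences of 0.50 ± 0.33, 0.34 ± 0.39, 0.37 ± 0.37 and 0.39 ± 0.35, none of them called.

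Other matrix, adhesion and signalling genes moved in opposite directions with the fusions. LAMA1 rose in TC and fell in YT, from 340.0 and 371 CPM in YT shNT to 59.2 and 77.9 CPM in YT shZZZ3; the difference was 5.20 ± 0.37 (adjusted p = 2.16e-04). ITIH5 went from 3.85 and 3.85 to 0.437 and 0.338 CPM in YT (difference 6.44 ± 0.47, adjusted p = 1.23e-04) and NRXN3 from 12.8 and 13.6 to 1.35 and 1.65 CPM (5.12 ± 0.64, adjusted p = 0.00156). TIMP3 went from 1101 and 1214 to 597 and 472 CPM (2.60 ± 0.25), GPC4 from 80.6 and 80.9 to 26.2 and 25.2 CPM (2.97 ± 0.31) and SEMA6A from 60.5 and 60.5 to 16 and 19.9 CPM (3.84 ± 0.51). In LAMA1 the controls of the 2 fusions were far apart, while the knock-down libraries of both fusions overlapped. The calretinin gene CALB2 (5.13 ± 0.95) and ATP10A (6.64 ± 1.33) had further large positive differences.

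In the other direction, COL3A1 fell in TC and was at 14.9 and 16.7 CPM in YT shNT and 27 and 32.1 CPM in YT shZZZ3 (difference -3.51 ± 0.39, adjusted p = 0.00108). HMCN1 was at 12 and 9.26 against 26.7 and 49.1 CPM in YT (-5.04 ± 0.82) and FAT3 at 5.81 and 3.34 against 17.7 and 25.9 CPM (-5.95 ± 1.44, adjusted p = 0.00259). FMN2, a formin of actin nucleation, was at 3.47 and 4.68 against 0.771 and 0.481 CPM in TC and 1.8 and 1.78 against 11.6 and 9.39 CPM in YT (-5.01 ± 0.42, adjusted p = 3.11e-04). LPAR6 (-5.63 ± 1.29) and CA4 (-5.05 ± 1.01) had large negative differences as well. RGS7, with 0 counts in the TC shZZZ3 libraries, was at 0.158 and 0.0575 CPM in YT shNT and 2.77 and 2.33 CPM in YT shZZZ3. TP63 had a value of -0.73 ± 0.25 in YT and a called difference of 3.32 ± 0.36 (adjusted p = 9.96e-04), and the basal keratin KRT15 had a difference of 2.52 ± 0.81 that was not called.

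**Figure D5:**
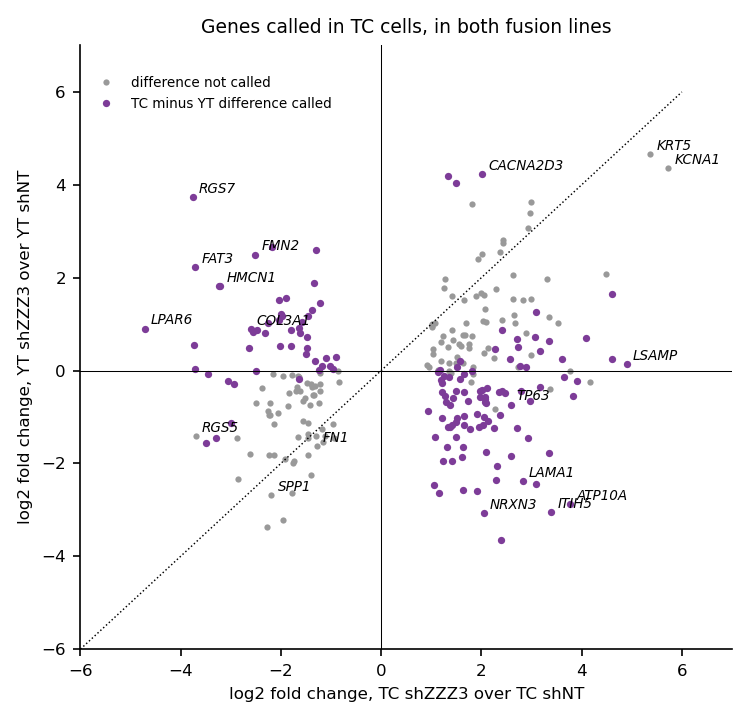
Log2 fold change with shZZZ3 in YT cells (y axis) against that in TC cells (x axis) for the 281 genes called in TC. Purple points are the 146 genes with a called difference between the fusions and grey points the others; the dotted line marks equal effects. KCNA1 and KRT5 lie near that line at the top right, while LAMA1, ITIH5 and NRXN3 lie below 0 on the y axis and RGS7, FAT3 and FMN2 above it.

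The ZZZ3 hairpin was last set against the YEATS2 hairpin in the same fusion line. Between TC shZZZ3 and TC shYEATS2, 221 genes (1.20%) were called, 107 higher and 114 lower in TC shZZZ3. Among them were 131 of the 281 genes above. Those were picked with the same TC shZZZ3 libraries, so this overlap is not independent support. Against TC shNT, 8 genes (0.0434%) were called with shYEATS2 and 3 of the 281 were among them: CXCL12, SDC2 and the lncRNA LINC03018, all higher with both hairpins. Both comparisons with TC shNT share the control libraries, so their values are only given side by side. KCNA1 was at 0.141 and 0.352 CPM in TC shYEATS2 (log2 5.73 with shZZZ3 and 0.22 with shYEATS2; direct difference 5.51 ± 0.54, adjusted p = 6.35e-04) and KRT5 at 0.247 and 0.151 CPM (direct difference 6.09 ± 0.63, adjusted p = 0.00112). NTRK2 (4.40 ± 0.74), PADI3 (3.84 ± 0.69), the hair follicle keratin KRT75 (4.12 ± 0.54) and FNDC1, a fibronectin type III domain protein (35 and 43.1 CPM with the ZZZ3 hairpin against 2.57 and 1.1 CPM with the YEATS2 hairpin, 4.32 ± 0.41), were the other large positive differences. SPP1, at 112 and 191 CPM in TC shYEATS2, differed by -2.01 ± 0.24 (adjusted p = 0.00307).

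Among the falls, PCSK1 was at 46.5 and 86.2 CPM in TC shYEATS2 and differed by -3.33 ± 0.29 (adjusted p = 0.00112), SAMD11 by -3.26 ± 0.31, IGF1 by -3.43 ± 0.91 and SCTR by -3.43 ± 0.44. RGS5 was at 182 and 43.9 CPM in TC shYEATS2, where the duplicates were more than 4-fold apart, and differed by -3.27 ± 0.48. CXCL12 and SDC2 were at 29.4 and 41.1 CPM and 132 and 115 CPM in TC shYEATS2, with differences of -0.26 ± 0.20 and 0.04 ± 0.16 that were not called, and CAMTA1 (0.62 ± 0.21) was not called either. YEATS2 itself was at 45.5 and 35.1 CPM in TC shYEATS2 and differed by 1.69 ± 0.17 (adjusted p = 0.00112). Without TC shZZZ3 replicate 1 or 2 the number of called differences between the hairpins was 31 or 29.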

How the data were processed

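RNA of SW872 cells was sequenced as stranded poly(A) libraries, 75-base paired reads, 2 libraries for each of 6 groups. The authors aligned reads to hg38 with HISAT2 and quantified Ensembl genes with Salmon. They deposited unnormalised read counts per gene by library and as 1 combined table, which was used here. The counts by library did not differ from it. The hairpin sequences and the lists of genes that follow the fusion came from the study's supplementary data. IDs were matched to GENCODE 44 for symbols (99.1% matched). ZZZ3 is listed in the table under another symbol and was identified by its Ensembl ID, ENSG00000036549.

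The 12 libraries were fitted together with edgeR 4.0.16 in R 4.3.3 (TMM scaling, genes averaging 5 counts or more, robust quasi-likelihood test, prior count 2), and p-values were adjusted by Benjamini-Hochberg over all 18415 genes tested, with calls at 0.05. Every adjusted p and every fitted log2 fold change with its SE comes from that fit. Pooling the groups gave 6 residual degrees of freedom, since 2 libraries against 2 cannot pass an exact test. Intervals on counts are exact binomial intervals at 95%, and they and the limits of 3 counts cover counting error only. Alternatives were DESeq2 1.42.0, other scalings and filters, smaller fits, a replicate block, removal of GC trends and leaving out each library. The code was tested on simulated counts. Named genes were the 15 largest called rises and falls and the 10 of highest CPM among protein-coding called genes with a mean of at least 1 CPM, up to 4 called members of each list (2 uncalled ones with the smallest p where none was called), the 6 largest differences in each direction from YT and from shYEATS2, the ATAC subunits, the fusion parents and a few genes fixed by name. A few genes that the rule chose are not reported here. Other list members given as values, such as the simple-epithelial keratins, were chosen after their values were seen. The comparison, its gene lists and its named genes were chosen with earlier results of these data known.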

Additional observations from a re-analysis of the deposited data

Results flagged for a closer look

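A difference of the shZZZ3 effect between TC and YT cells was called for 146 of the 281 genes called in TC. Those genes were picked on the TC effect, which is part of the difference. A difference was called for 49 genes chosen by the naming rule, of which FBLN5, AJUBA and TYMS were not called in TC. Their adjusted p ran from 1.23e-04 to 0.0435 (edgeR quasi-likelihood test of the difference in the fit of all 12 libraries). Values in brackets are the log2 fold change in TC minus that in YT.

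The difference was positive for 31 of these genes. Differences of 4 and more on the log2 scale were those of ATP10A (6.64), ITIH5 (6.44), LAMA1 (5.20), CALB2 (5.13), NRXN3 (5.12), LSAMP (4.76), LRP2 (4.37), NTRK2 (4.36), SAMD5 (4.14). Between 3 and 4 were SEMA6A (3.84), FAT2 (3.79), LPAR3 (3.40), ATF3 (3.36), MME (3.35), TP63 (3.32), FBLN5 (3.15). Between 2 and 3 were CSMD2 (2.97), GPC4 (2.97), KRT17 (2.82), TIMP3 (2.60), BMP6 (2.54), IL1B (2.39). The smaller positive differences were those of FOSL1 (1.92), CXCL14 (1.82), PHLDA1 (1.51), PLAU (1.48), AJUBA (1.45), SDC2 (1.41), CXCL12 (1.37), COL6A3 (1.36), EMILIN2 (1.18).

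The difference was negative for 18 of these genes. The largest sizes were those of RGS7 (-7.49), FAT3 (-5.95), LPAR6 (-5.63), CA4 (-5.05), HMCN1 (-5.04), FMN2 (-5.01), IGF1 (-4.29). Between 3 and 4 in size were MALL (-3.73), FAT4 (-3.55), COL3A1 (-3.51), PCSK1 (-3.37). The smaller ones were NPTX1 (-2.83), TDO2 (-2.65), CACNA2D3 (-2.21), TEK (-2.20), SAMD11 (-1.92), TYRP1 (-1.86), TYMS (-1.26). RGS7 had 0 counts in both TC shZZZ3 libraries, so its fitted value depends on the prior count and is not a bound.

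TC shNT and YT shZZZ3 were the groups whose duplicates lay farthest apart (median absolute log2 difference per gene 0.483 and 0.433). Both differences followed GC content (Spearman rho -0.81 and -0.73 over 13258 genes) and correlated with each other (r = 0.90). Both groups enter the TC minus YT difference with the same sign, so a shift that they share adds up there and does not cancel. The 795 called differences over all genes became 1958 with GC trends removed and 1021 with the replicate number as a block. They became 721 and 1012 without TC shNT replicate 1 or 2, and 607 and 685 without YT shZZZ3 replicate 1 or 2.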

How the results depend on the processing

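The 281 calls of TC shZZZ3 against TC shNT became 744 with no filter on low counts, 532 with DESeq2, 669 with GC trends removed, 157 with only the 4 libraries of the comparison and 87 with only the TC libraries. With 1 library left out the count ran from 50 to 152: 152 without TC shNT replicate 1, 144 without TC shNT replicate 2, 50 without TC shZZZ3 replicate 1 and 53 without TC shZZZ3 replicate 2. For the TC minus YT difference, 795 genes became 1549 with no filter, 1274 with DESeq2 and 1958 with GC trends removed, and 204 to 1012 with 1 library left out; leaving out either TC shZZZ3 library (248 and 237) or either YT shNT library (259 and 204) moved it most. For TC shZZZ3 against TC shYEATS2, 221 genes became 751 with no filter, 492 with DESeq2, 658 with GC trends removed, 42 with only the 4 libraries, 57 with only the TC libraries, and 29 to 400 with 1 library left out; 31 and 29 were called without either TC shZZZ3 library, and 400 were called without TC shYEATS2 replicate 1. Smaller fits hold fewer samples, and otherwise the cause was not tested. ZZZ3 itself had a log2 fold change of -0.97 and was called with no filter on low counts, and it ran from -1.45 to -0.22 with 1 library left out. The other scalings and edgeR's filterByExpr kept each count within 1.5 times. The fit of only the TC libraries cannot give the TC minus YT difference and was not run for it.

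Of the 281 genes, 279 were also called in the same direction with GC trends removed, 270 with DESeq2, 127 with only the 4 libraries and 85 with only the TC libraries, and none changed sign under any of these. Of 82 called genes that the naming rule chose, 81 kept their call with GC trends removed and 72 when scaled by library totals, and 29 to 60 with 1 library left out.

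Replicate numbers did not pair the samples across all groups. Correlations between groups of the difference between replicates 2 and 1 ran from -0.44 to 0.90 (0.43 for TC shNT with TC shZZZ3). The 0.90 was that of TC shNT with YT shZZZ3. With the replicate number as a block the counts were 353, 1021 and 331, and 279 of the 281 genes were called in the same direction. ZZZ3 was at -0.87 with the block.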

Other observations

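These called genes lay outside the naming rule and were chosen after their values were seen. They were not counted against a full list of their kind, so they do not describe a group of genes. Further genes known from squamous epithelium stood among the rises: TP73, a relative of TP63 (0.114 and 0.335 CPM in TC shNT and 1.58 and 1.6 CPM in TC shZZZ3, log2 fold change 2.47 ± 0.61), the calcium-binding protein gene S100A2 (1.64 and 1.19 against 5.36 and 4.17 CPM, 1.68 ± 0.34) and CLCA2 (0.42 and 0.478 against 1.58 and 1.6 CPM, 1.65 ± 0.36). CASP14, a caspase of cornifying keratinocytes, had 3 counts in the controls and 48 in the knock-down libraries (ratio 17.4, exact 95% interval 5.61 to 87.4), and ANXA8, an annexin with near-identical gene copies, had 2 and 55 (ratio 29.9, exact 95% interval 7.90 to 253). The kallikrein gene KLK6 went the other way, with 26 counts in the controls and 1 in the knock-down libraries (ratio 23.9, exact 95% interval 3.93 to 980). The transcription factor GATA3 rose by 2.09. DACH1 and MECOM, also transcription factors, had 0 counts in both TC shNT libraries and 31 and 22 counts in TC shZZZ3, so they were at least 11.2-fold and 7.98-fold higher against 3 counts over the group. None of TP73, S100A2, CLCA2 and GATA3 was called without TC shNT replicate 1 or without TC shNT replicate 2.

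The neurofilament genes NEFL (1.26 and 1.39 against 15 and 13.6 CPM, 3.35 ± 0.38) and NEFM (0.992 and 1.62 against 6.9 and 6.09 CPM, 2.25 ± 0.41) rose, while the neuronal intermediate filament gene PRPH fell (6.6 and 4.68 against 2.19 and 1.71 CPM, -1.49 ± 0.31). PCDHB12, PCDHB13, PCDHB14 and PCDHB15, neighbours in the clustered protocadherin beta family, fell by 2.31, 2.03, 1.97 and 1.80 on the log2 scale; these near-identical genes can share reads, so the split between them is uncertain. H19, an imprinted lncRNA, rose from 31.5 and 28.1 to 168 and 152 CPM in TC (2.42 ± 0.32) and from 12.5 and 12.8 to 106 and 71.7 CPM in YT (2.80 ± 0.33).

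Complement and leukocyte adhesion genes were also called. Complement C3 rose (5.53 and 4.44 against 29.7 and 31.7 CPM, 2.60 ± 0.29) and C7 fell (11.5 and 14.5 against 3.45 and 4.12 CPM, -1.76 ± 0.36). VCAM1, the vascular cell adhesion molecule, fell from 83.8 and 124 to 35.9 and 42.7 CPM (-1.40 ± 0.23), and P-selectin, SELP, fell by 1.77. MGP, the matrix Gla protein, fell from 139 and 111 to 55.9 and 45.5 CPM in TC (-1.30 ± 0.25) and was at 25.7 and 28.2 CPM in YT shNT and 172 and 154 CPM in YT shZZZ3 (2.59 ± 0.26, adjusted p = 4.00e-04). Of the AP-1 family, JUN (23.3 and 16.4 against 52.9 and 42.4 CPM, 1.26 ± 0.23) and MAFF (1.23 ± 0.26) rose in TC, and in YT their values were 1.78 ± 0.23 and -1.95 ± 0.25.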
